A study of Homo sapiens with 6 samples.

Results

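The mRNAs of IPO7, TMED9, RAD23B, NUCKS1 and SRP72 carry stops of reverse transcriptase (RT) at guanine (G) that were called as RNA G-quadruplexes (rG4s) in U2OS cells, a human osteosarcoma line. These 5 transcripts, of 15739 RefSeq transcripts in the 6 files, were selected on measured values, namely the place of their rG4 stops near the top or the bottom of a ranking of 27 stops by the change of a folding score between unstressed and starved cells. The RefSeq entries are NM_006391 for IPO7, NM_017510 for TMED9, NM_002874 for RAD23B, NM_022731 for NUCKS1 and NM_006947 for SRP72. IPO7, TMED9 and RAD23B ranked 1, 4 and 5, and SRP72 and NUCKS1 ranked 25 and 26, and these are called the 5 chosen stops. The ranking held the 27 scored stops for which both in vitro counts reached 20. Among all 116 scored regions, IPO7 stood at 4, TMED9 at 22, RAD23B at 23, SRP72 at 78 and NUCKS1 at 83. Places near the bottom, and near the top for TMED9 and RAD23B, therefore hold within the 27 ranked stops alone. Even there APP and LMNB1 ranked 2 and 3, and HNRNPU ranked 27. The change between the cell libraries and the difference between the in vitro libraries chose these members, so both are given as descriptions with no test. In all, the 5 mRNAs held 12 of the 2323 rG4 regions called in the series.

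In an rG4, runs of G pair in stacked planes held together by a central cation, K+ more firmly than Na+ or Li+, and RT that meets the folded structure from its 3′ side halts at the last G. Dimethyl sulfate (DMS) methylates the N7 of G that is not in a quartet, after which the RNA cannot refold during RT. A stop left after DMS treatment is therefore read as a sign of structure that was folded when DMS was added, although RNA refolded in Li+ also kept some stops. DMS also methylates A and C where they are unpaired, and RT halts there as well.

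The genes have unrelated roles. IPO7 encodes importin 7, a nuclear import receptor of the importin beta family. TMED9 encodes a p24 family protein that sorts cargo in the early secretory pathway. RAD23B encodes a shuttle factor that carries ubiquitinated proteins to the proteasome and a partner of XPC in nucleotide excision repair. NUCKS1 encodes a nuclear, DNA-binding substrate of casein kinase and cyclin-dependent kinases. SRP72 encodes a protein of the signal recognition particle, which brings ribosomes making secreted proteins to the endoplasmic reticulum.

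All 6 libraries were made from polyA+ RNA of U2OS cells, with 1 library per condition. In 2 libraries the RNA got no DMS, and RT ran in 150 mM Na+ or 150 mM K+ by the labels. The study's methods name Li+ in place of Na+ for this pair. In 2 libraries purified RNA was refolded and treated with DMS in 150 mM K+ or 150 mM Li+. In 2 libraries living cells were treated with 8% DMS for 5 min, either unstressed or after 2 h in starvation medium. RT of the 4 DMS libraries ran in 150 mM K+. Labels and file names contradict each other for the pair without DMS, and stops at G-rich sequence were strong in the library labelled Na+. These libraries are called by their labels here, and rG4 regions were called where E was higher in the library labelled Na+. With the 2 libraries exchanged, none of the 5 mRNAs had an rG4 region.

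The listed stops ranged from 12999691 in unstressed cells to 35371061 in the library labelled K+, with 24014417 in starved cells. The files list a nucleotide only where it had at least 3 stops, and a nucleotide not listed was counted as 0. Enrichment (E) is the number of stops at a nucleotide divided by the mean number of stops per nucleotide of that transcript in that library. There was no replicate, so every interval here is a 95% interval of counting error, and PCR duplicates and differences between cultures lie outside it. VIM, COL1A1, SPARC and CD44, which are expressed in mesenchymal and bone cells, had at least 1 stop per nucleotide in both libraries without DMS, whereas RUNX2, a transcription factor of bone, had 0.261 and 0.263. EPCAM, a marker of epithelial cells, had 0.268 and 0.275 stops per nucleotide. Of the other markers looked up, COL1A2 and, for other lineages, CDH1, PTPRC and ALB had no transcript matched to the reference.

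The 30 nucleotides that end at each chosen stop are shown because their G runs are what RT met first. They are GENCODE release 44 transcript bases on GRCh37, written 5′ to 3′ as DNA letters, with runs of at least 3 G in capitals. IPO7 lies at chr11:9467408-9467437 on the plus strand, TMED9 at chr5:177022882-177022911 (plus), RAD23B at chr9:110092489-110092518 (plus), NUCKS1 at chr1:205686752-205686781 (minus) and SRP72 at chr4:57333797-57333826 (plus).
IPO7 3955: taaaaagatgtaatGGGGtGGGGGGcaGGG
TMED9 1205: gtgtgtgtgagttgaGGGtGGGtggaGGGG
RAD23B 2205: taaatacttGGGGtGGGaGGGGagaaaGGG
NUCKS1 1659: ttttaccttgtaGGGaGGGtGGGcaatGGG
SRP72 65: ccaagatggcgagcggcggcagcGGGGGGG
The number after each gene is the position of the stop in the RefSeq transcript. At IPO7 and NUCKS1 the nucleotide after the stop is also a G, so the last run goes on past the end shown. The stops of IPO7, TMED9, RAD23B and NUCKS1 lie in the 3′ UTR, each in the last exon (25 of 25, 5 of 5, 10 of 10 and 7 of 7). The SRP72 stop lies in the coding sequence in exon 1 of 19. At these stops every base listed in the files equalled the GENCODE base.

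Another rG4 stop in the 3′ UTR of each mRNA that has one is shown for comparison, since those of IPO7, TMED9 and RAD23B had folds in cells near those of the chosen stops. TMED9 1325, which differed by 1.44-fold, is not shown. The nucleotide after TMED9 1034 is also a G. They lie at chr11:9466919-9466948 (IPO7, plus), chr5:177022711-177022740 (TMED9, plus), chr9:110092044-110092073 (RAD23B, plus) and chr1:205683418-205683447 (NUCKS1, minus).
IPO7 3466: agcGGGattttGGGGGtGGGGGGGGatGGG
TMED9 1034: gtgaggctgctgttGGGGGtGGGGGGaGGG
RAD23B 1760: tagtagattgttGGGGGtGGGGaGGGaGGG
NUCKS1 4993: GGGaGGGttttctagattattGGGGGaGGG

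The motif did not separate the chosen stops near the top of the ranking from those near the bottom. On the mRNA strand of the 45 nt that end at the stop, 4 G runs, each 3 or longer, separated by loops of 1 to 7 nt were present at RAD23B 2205 and at NUCKS1 1659, near opposite ends of the ranking, and absent at IPO7 3955, TMED9 1205 and SRP72 65. This motif was found at 4 of the 12 regions of the 5 mRNAs and at 20.0% of 2278 regions in all. Among the 27 ranked regions, from which the chosen stops come, it was found at 66.7%. A looser motif, with G runs of 2 or longer and loops of 1 to 9 nt, holds every match of the stricter one and was found at 11 of the 12 regions and at 83.3% in all. The windows of the chosen stops held 18 G (IPO7), 23 G (TMED9), 16 G (RAD23B), 14 G (NUCKS1) and 19 G (SRP72), beside a median of 21 over all regions. Within its window NUCKS1, with the fewest G, had runs of at most 3 G, and SRP72 had a single run of at least 3 G, which was 7 long. The windows end at the stop, and at IPO7 and NUCKS1 the next nucleotide is also a G. The last run of these mRNAs is therefore longer than its part in the window.

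Without DMS, all 5 chosen stops were strong in the library labelled Na+ and weak in the library labelled K+. IPO7 3955 had 874 stops in the first and 13 in the second, an E of 141 (132–151) against 2.14 (1.14–3.66). TMED9 1205 had 467 and 22 stops, with an E of 66.1 (60.3–72.4) against 4.11 (2.58–6.22). RAD23B 2205 had 1553 and 17 stops, with an E of 326 (310.0–343) against 4.11 (2.39–6.57). These are the members near the top of the ranking, and the fold between the libraries was 65.8 for IPO7, 16.1 for TMED9 and 79.4 for RAD23B. NUCKS1 1659 had 1008 and 6 stops, with an E of 225 (211–239) against 1.35 (0.496–2.94). SRP72 65 had 1227 and 22 stops, with an E of 187 (177–198) against 3.24 (2.03–4.91). The fold was 166 (76.2–455) for NUCKS1, the largest value of the 5, and 57.7 (37.9–92.4) for SRP72. The NUCKS1 interval overlaps those of RAD23B (49.4–137), IPO7 (38.3–124) and SRP72, so these 4 cannot be ordered with NUCKS1 first. RAD23B had the highest E of the 5 in the library labelled Na+, and those of NUCKS1 and SRP72 lay above IPO7 and TMED9. Of all strong stops at G in the library labelled Na+, 74.6% were at least 2-fold above the library labelled K+, which the calling of regions required.

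In vitro, all 5 chosen stops were at least 2-fold stronger after folding in K+ than in Li+, as the folding score requires. IPO7 3955 had 36 stops in K+ and 20 in Li+, with an E of 8.91 and 3.70. TMED9 1205 had 44 and 27 stops, with an E of 11.3 and 5.33. RAD23B 2205 had 73 and 33 stops, with an E of 27.2 and 9.26. NUCKS1 1659 had 93 and 26 stops, with an E of 33.3 and 6.81. SRP72 65 had 56 and 33 stops, with an E of 12.9 and 5.74. NUCKS1 therefore had the widest gap between refolded and unfolded RNA, 26.5 units of E, whereas the gap was 5.22 for IPO7, 5.94 for TMED9, 7.21 for SRP72 and 17.9 for RAD23B. The fold was 4.89 (3.14–7.88) for NUCKS1 and between 2.11 and 2.94 for the other 4. Across 850 rG4 regions covered in vitro, 28.8% were at least 2-fold stronger in K+, beside 7 of the 12 regions on the 5 mRNAs, 5 of which entered by this criterion.

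**Figure D1:**
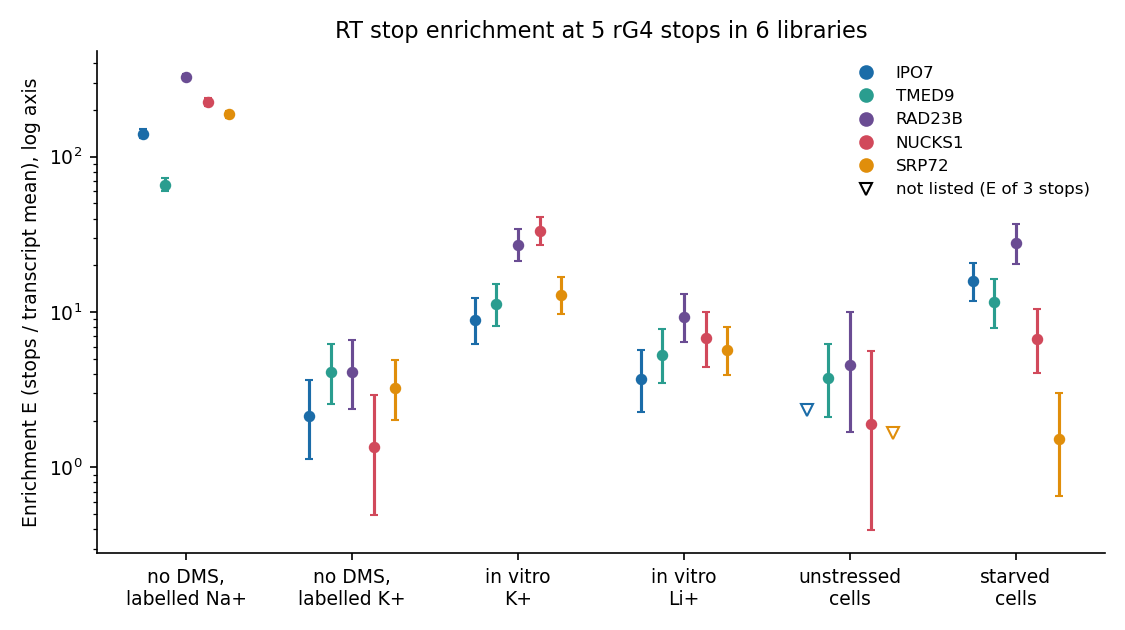
RT stop enrichment E (stops divided by the transcript mean, log axis) at the 5 chosen rG4 stops in the 6 libraries, with 95% Poisson intervals of counting error. Open triangles stand at the E that 3 stops would give where the stop was not listed (IPO7 and SRP72 in unstressed cells). All 5 stops were high in the library labelled Na+, and in starved cells E ran from 1.52 at SRP72 to 27.8 at RAD23B.

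In cells, E was higher after starvation at the IPO7, RAD23B and TMED9 stops. IPO7 3955 was not listed in unstressed cells, where 3 stops would give an E of 2.33, and had 53 stops and an E of 15.8 (11.9–20.7) in starved cells. Taken against 3 stops, this was at least 6.81-fold higher. RAD23B 2205 went from 6 to 48 stops and from an E of 4.59 (1.68–9.99) to 27.8 (20.5–36.9), a 6.06-fold difference (2.59–17.3). TMED9 1205 went from 15 to 32 stops and from an E of 3.76 (2.10–6.19) to 11.6 (7.92–16.3), a 3.08-fold difference (1.62–6.13). The intervals of E in unstressed and starved cells did not overlap at RAD23B and TMED9, and the interval of IPO7 in starved cells lay above the E of 3 stops in unstressed cells. These stops were chosen by their change between the same 2 libraries, so the gaps describe the choice and are no test of it. The IPO7 and RAD23B stops cannot be ordered by fold, since that of IPO7 is a lower bound.

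The stops ranked low did not have equally small folds. NUCKS1 1659 went from 3 to 19 stops and from an E of 1.91 (0.394–5.58) to 6.70 (4.03–10.5), a 3.51-fold difference (1.03–18.5). This interval holds the whole interval of TMED9, so the 2 mRNAs cannot be ordered by fold. SRP72 65 was not listed in unstressed cells and had 8 stops and an E of 1.52 (0.658–3.0) in starved cells. The E that 3 stops would give in unstressed cells is 1.66, so no rise was detectable at this depth. No other nucleotide within 30 nt of it was listed in unstressed cells either. SRP72 thus stayed low in E in both cell libraries, and at the other 4 stops E in starved cells was at least 6.70.

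The ranking rests on a score that sets E in cells on a scale from 0, the E in Li+, to 1, the E in K+. The score of IPO7 3955 went from -0.71 to 2.33, a rise of 3.04 ± 1.08 (SE from counting). The scores went from -0.26 to 1.05 for TMED9 (rise 1.32 ± 0.58) and from -0.26 to 1.04 for RAD23B (rise 1.30 ± 0.36). In starved cells the SE of the score was 0.81 for IPO7, 0.46 for TMED9 and 0.29 for RAD23B, so those of TMED9 and RAD23B lay within 1 SE of 1, the value of RNA refolded in K+. With E relative to nucleotides of the same base, the rises were 2.69 (IPO7), 0.74 (TMED9), 0.88 (RAD23B), 0.12 (NUCKS1) and 0.19 (SRP72). NUCKS1 went from -0.18 to -0.0043 (rise 0.18 ± 0.08) and SRP72 from -0.80 to -0.58 (rise 0.21 ± 0.12). NUCKS1 in starved cells thus sat at the level of the RNA refolded in Li+. Of 116 scored regions, 77 (66.4%) rose by at least 0.25, as did 4 of the 7 scored regions on the 5 mRNAs, a contrast that the choice of members used.

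Just inside and just outside the ends of the ranking the rises were close. LMNB1 ranked 3 with a rise of 1.52, and TMED9, RAD23B and ELOVL1 ranked 4, 5 and 6 with rises of 1.32, 1.30 and 1.28. At the lower end SET ranked 24 with 0.25, above SRP72 and NUCKS1, and HNRNPU ranked 27 with 0.05. APP, which ranked 2, rose by 2.67. By the log2 change of E with 1 stop added, in place of the score, the same 27 stops stood in another order. With a stop that was not listed counted as 0, IPO7 was then 1, RAD23B 6, SRP72 14, TMED9 16 and NUCKS1 20. With such a stop counted as 2, the most it can have had, IPO7 was 3, RAD23B 5, TMED9 15, NUCKS1 19 and SRP72 27, so SRP72 has no fixed place by fold. By the width of the in vitro gap NUCKS1 stood near the wide end and IPO7 near the narrow end, so the same change of E gives NUCKS1 a smaller rise of the score.

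**Figure D2:**
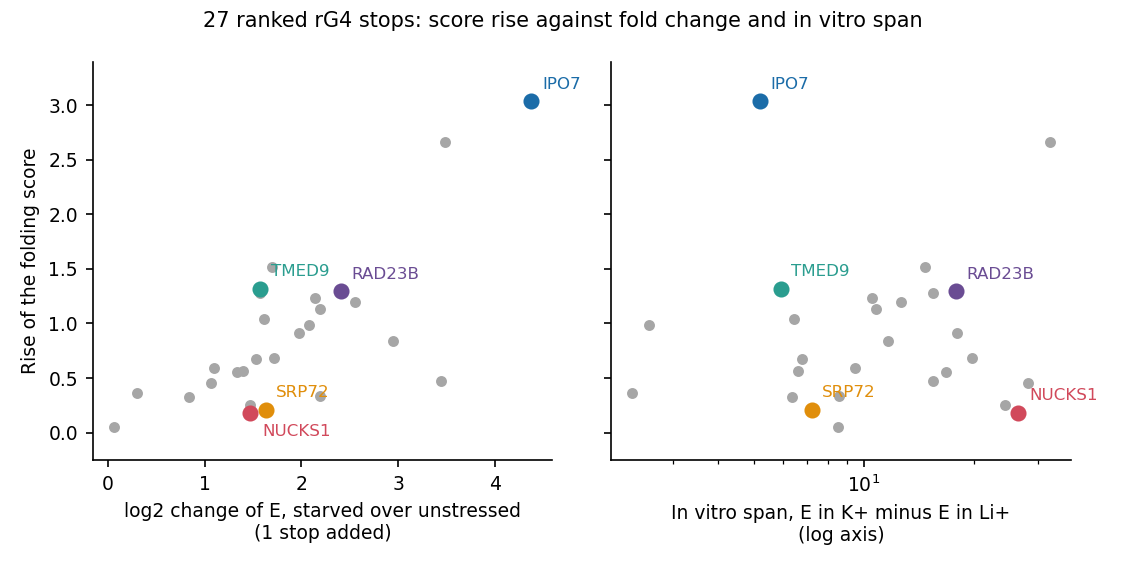
Rise of the folding score for the 27 ranked rG4 stops against the log2 change of E in cells (left) and against the in vitro gap, E in K+ minus E in Li+ (right, log axis). TMED9 and NUCKS1 have log2 changes of 1.58 and 1.47 and rises of 1.32 and 0.18, with in vitro gaps of 5.94 and 26.5.

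At IPO7, TMED9, RAD23B and NUCKS1 an adjacent G had more stops in starved cells, as the chosen stop had. At IPO7 the G after the stop went from not listed to 48 stops and the G before it to 15. At TMED9 the G before the stop went from 12 to 41 stops and the one before that from 7 to 21. At RAD23B the preceding G went from 3 to 19 stops. At NUCKS1 the G on each side of the stop went from not listed to 13 stops. At SRP72 no adjacent nucleotide was listed in unstressed cells, and in starved cells a G 2 nt upstream had 5 stops. Stops were also summed over the stop and 2 nt on each side, with nucleotides not listed counted as 0. The fold was 3.63 (2.48–5.41) for TMED9, 3.91 (2.35–6.89) for RAD23B and 8.31 (2.67–41.8) for NUCKS1. The NUCKS1 value rests on 3 stops in unstressed cells, all at the chosen stop. The intervals overlap, so these 3 mRNAs cannot be ordered by this fold. IPO7 had 116 stops in this window in starved cells and SRP72 had 13, and neither had a listed stop in unstressed cells.

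**Figure D3:**
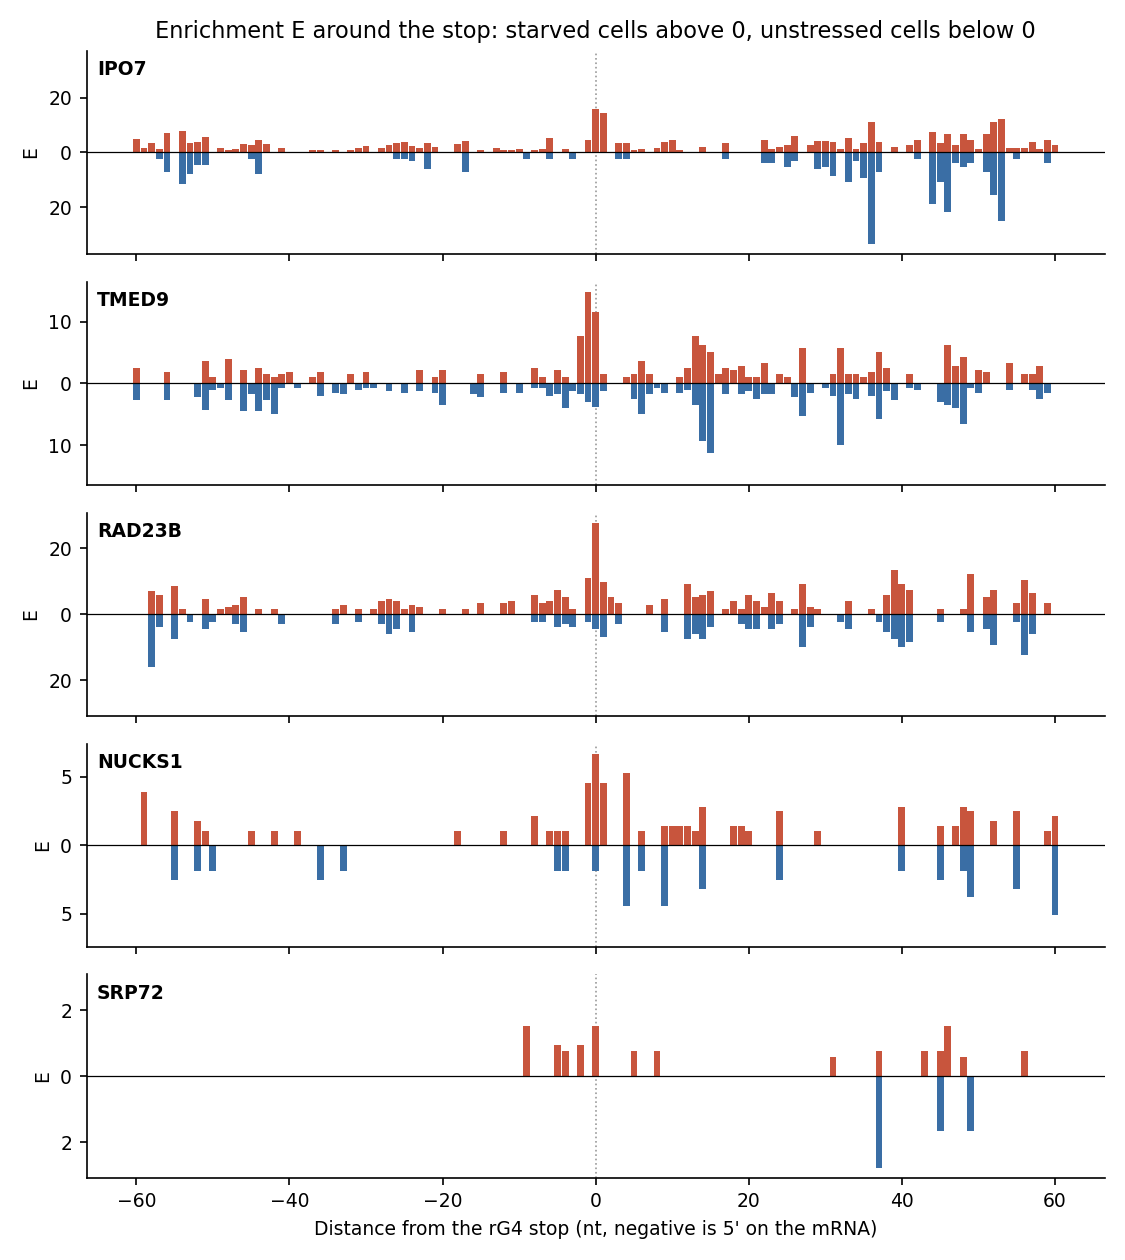
Enrichment E at each nucleotide within 60 nt of the 5 chosen stops, with starved cells drawn upward and unstressed cells downward on the same linear scale within each panel. The stop and an adjacent G have a higher E in starved cells at IPO7, TMED9, RAD23B and NUCKS1, and SRP72 has no listed stop within 30 nt in unstressed cells.

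On an RNA fragment that holds the stop, the sequence 5′ of it is reached only by RT that has passed it. The RNA was cut into short fragments before RT, so fragments that end 5′ of the stop also give stops there. Stops 5′ of the chosen stop are therefore only in part a readout of passage, one that the choice of members did not use. In the library labelled Na+, the 3 to 30 nt upstream held 15 stops at TMED9, against 144 in the library labelled K+, 20 against 304 at RAD23B, and none listed against 87 at NUCKS1. Relative to the transcript means these were 0.0790-fold (0.0431–0.135) at TMED9 and 0.0572-fold (0.0344–0.0899) at RAD23B. IPO7 had 74 against 257 stops, 0.282-fold (0.215–0.367). SRP72 had 150 against 169 stops, 0.918-fold (0.732–1.15), and was alone among the 5 chosen stops in having no detectable loss upstream. These folds count nucleotides not listed as 0, and each such nucleotide can have had up to 2 stops. Counted as 2, the folds were 0.350 (IPO7), 0.316 (TMED9), 0.192 (RAD23B), 0.482 (NUCKS1) and 0.941 (SRP72), so the order against SRP72 held. Of 1642 regions with at least 10 upstream stops in the library labelled K+, 23.6% had at least 2-fold fewer in the library labelled Na+, and the median was 0.868-fold. On the 5 mRNAs this held for 6 of 12 regions. IPO7 3466 and NUCKS1 225 went the other way, at 1.74-fold (1.44–2.11) and 2.44-fold (1.94–3.10).

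In vitro the upstream stops were fewer in K+ than in Li+ by the listed counts. Upstream of NUCKS1 1659 no stop was listed in K+ and 34 were listed in Li+. RAD23B had 13 in K+ and 133 in Li+, or 0.130-fold (0.0673–0.229), and TMED9 had 12 and 53, or 0.294-fold (0.143–0.557). IPO7 and SRP72 had 0.773-fold (0.546–1.09) and 0.882-fold (0.653–1.19), intervals that include 1. With nucleotides not listed counted as 2, the fold was 0.536 for RAD23B and between 0.969 and 1.06 for the other 4, so on this count a loss was left at RAD23B alone. At NUCKS1, with 28 nucleotides not listed in K+ and 21 in Li+, the added counts outweigh the listed ones. This count therefore cannot show that there was no loss at the other 4. Over all regions 21.0% had at least 2-fold fewer upstream stops in K+, with a median of 0.806-fold, and this held for 5 of 11 regions on the 5 mRNAs.

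In cells the listed counts gave no common direction upstream of the chosen stops. From unstressed to starved cells they went from 112 to 48 at TMED9, 0.619-fold (0.432–0.876), from 45 to 110 at RAD23B, 1.85-fold (1.30–2.68), and from 36 to 152 at IPO7, 1.63-fold (1.13–2.41). NUCKS1 had 6 and 21, or 1.94-fold (0.757–5.87), and SRP72 had none listed and 17. With nucleotides not listed counted as 2, the folds were 0.852 (IPO7), 0.906 (TMED9), 1.19 (RAD23B), 0.621 (NUCKS1) and 0.412 (SRP72). The direction was thus not determined at IPO7, NUCKS1 and SRP72, where it turned. Of 371 regions, 21.0% had at least 2-fold fewer upstream stops in starved cells, as did 0 of 6 regions on the 5 mRNAs. Downstream of the stop, where RT has not yet met it, the folds were 1.50 (1.07–2.13) for IPO7, 0.901 (0.728–1.11) for TMED9, 1.24 (0.944–1.63) for RAD23B and 1.41 (0.880–2.31) for NUCKS1. Each was below the fold at the stop of the same mRNA, with intervals that overlap at NUCKS1 and with nucleotides not listed counted as 0. The choice of members used the change at the stop, so this comparison is a description only. SRP72 had none listed downstream within 30 nt in unstressed cells and 8 stops in starved cells.

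IPO7, TMED9 and RAD23B each held another 3′ UTR stop whose E was higher after starvation than without it. IPO7 3466, which lies 5′ of the chosen stop, went from 5 to 111 stops and from an E of 3.88 (1.26–9.05) to 33.2 (27.3–39.9), an 8.56-fold difference (3.56–26.9). TMED9 1034 went from 18 to 64 stops and from an E of 4.51 (2.67–7.12) to 23.2 (17.8–29.6), a 5.14-fold difference (3.01–9.21). Neither has a score, since E in K+ exceeded that in Li+ by only 1.60-fold and 1.35-fold. RAD23B 1760 went from 3 to 30 stops, a 7.57-fold difference (2.36–38.8), and its score rose by 1.20 (rank 8). RAD23B thus held a pair of rG4 stops in its 3′ UTR with overlapping intervals of the fold, and IPO7 and TMED9 each held an unscored rG4 with an E in starved cells above that of the chosen stop.

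The other rG4 regions of NUCKS1 had folds near 1, with intervals that overlap that of the chosen NUCKS1 stop. NUCKS1 225, in the 5′ UTR in exon 1 of 7, had 9 and 20 stops, 1.23-fold (0.536–3.07). NUCKS1 4993 had 3 and 7 stops, 1.29-fold (0.295–7.74), and a rise of the score of 0.08. The weaker TMED9 1325 had 8 stops in each, 1.44-fold (0.473–4.42). RAD23B 1436, the coding region stop in exon 9 of 10, was not listed in either cell library. Of the 12 regions 9 lie in the 3′ UTR, and 11 had at least 5 stops in the 2 cell libraries together. With 1 stop added, 8 of these 11 were at least 2-fold higher in starved cells, beside 62.1% of 327 rG4 region stops, a contrast that the choice of members used. SRP72 is one of the 8, counted from 0 in unstressed cells. Each of the 5 mRNAs was chosen for holding a region, and all but SRP72 held at least 2, as did 525 of the 1380 transcripts with a region.

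**Figure D4:**
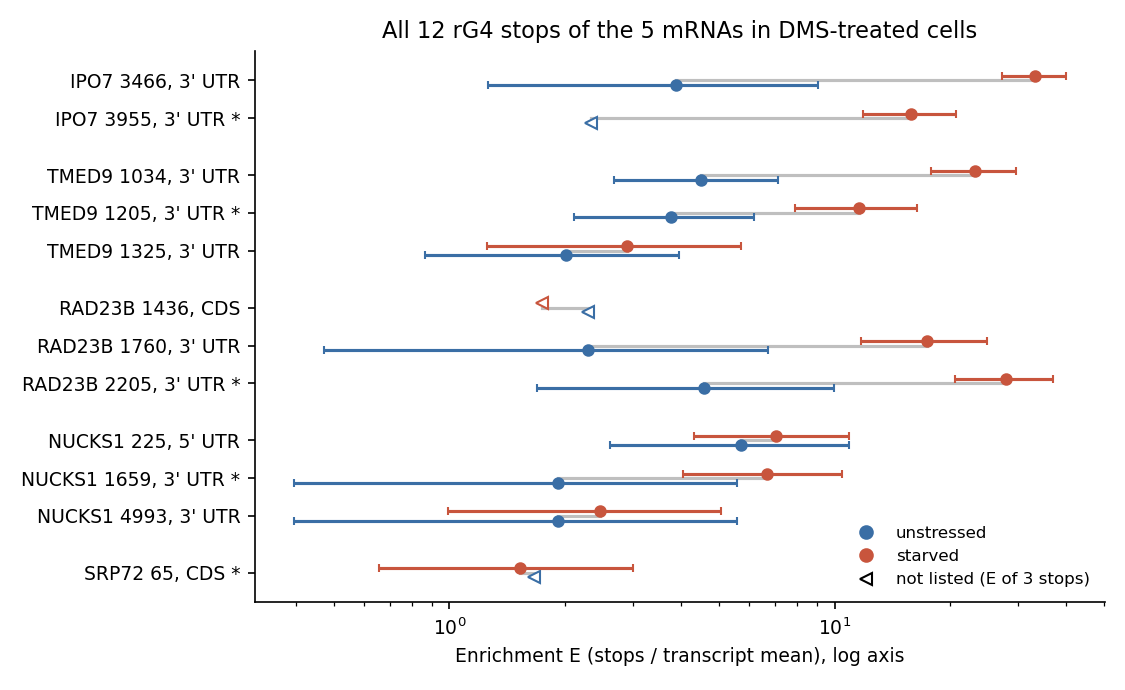
Enrichment E in unstressed (blue) and starved (red) cells at all 12 rG4 stops of the 5 mRNAs, on a log axis with 95% Poisson intervals of counting error. Asterisks mark the chosen stops and open triangles the E of 3 stops where a stop was not listed. The IPO7, TMED9 and RAD23B stops in the 3′ UTR move apart except TMED9 1325, and the intervals of all 3 NUCKS1 stops overlap.

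Stops at G as a whole were also higher in starved cells. Over 156379 stops at G with at least 5 stops in the 2 cell libraries together, the median log2 change was 0.93, and 47.9% were at least 2-fold higher. The mean E over all G of an mRNA, which includes counts too low to be listed, was higher in starved cells 1.72-fold in IPO7, 1.62-fold in TMED9, 1.84-fold in RAD23B, 1.59-fold in NUCKS1 and 1.68-fold in SRP72. The median over 1370 transcripts was 1.60, with quartiles of 1.52 and 1.68. The share of stops at A or C moved the other way, from 85.4% to 76.0% in IPO7, from 76.1% to 62.1% in TMED9, from 85.7% to 74.2% in RAD23B, from 83.1% to 73.7% in NUCKS1 and from 86.3% to 78.2% in SRP72. The medians over all transcripts were 83.4% and 73.7%. Since E is taken relative to all nucleotides, this shift is part of every rise given above, and whether DMS reached both cell cultures equally was not tested.

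Measured against the mean of the G in the same mRNA, the log2 change of the chosen stop was 1.53 at RAD23B, 0.88 at TMED9 and 0.80 at NUCKS1, so TMED9 and NUCKS1 lay within 0.08 of each other. IPO7 and SRP72 had no listed stop in unstressed cells, so this value depends on the count assumed there and is not given. Among the stops at G of the same mRNA that lie over 30 nt away, the place of the chosen stop by its change depended on stops not listed in unstressed cells. These were 152 of the 213 other stops at IPO7, 11 of 97 at TMED9, 38 of 79 at RAD23B, 136 of 241 at NUCKS1 and 190 of 258 at SRP72. Counted as 0, they put the chosen stop at rank 1 on IPO7, 16 on TMED9, 25 on RAD23B, 137 on NUCKS1 and 44 on SRP72. Counted as 2, they put it at rank 2 on IPO7, 9 on TMED9, 2 on RAD23B, 3 on NUCKS1 and 57 on SRP72. The median of the others on NUCKS1 was 1.73 in the first case and 0.33 in the second, so the NUCKS1 stop, at 1.47 in both, turned from below to above it. By E in starved cells, in place of its change, few other G exceeded the chosen stop: 1 on IPO7, 1 on TMED9, 0 on RAD23B and 3 on NUCKS1. On SRP72 107 other stops at G were as high or higher.

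**Figure D5:**
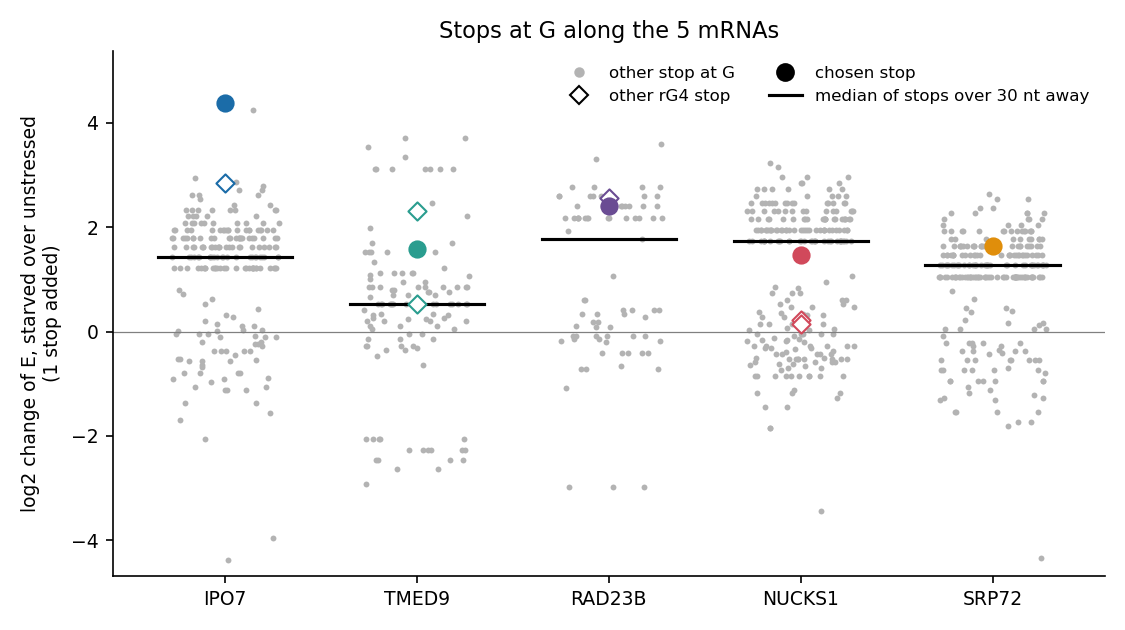
The log2 change of E (starved over unstressed, 1 stop added) for stops at G with at least 5 stops in the 2 cell libraries together, along each mRNA; black lines are medians of the stops over 30 nt from the chosen stop. Stops not listed are counted as 0, which gives the upper bands of points. The IPO7 stop lies at 4.38, and the NUCKS1 stop at 1.47 lies below its median of 1.73, which is 0.33 if stops not listed count as 2.

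Strong stops in cells outside the rG4 regions lay almost all at A or C. With an E of at least 10 in either cell library there were 89 on IPO7, 54 on RAD23B, 30 on SRP72 and 8 on TMED9, all at A or C, and 94 on NUCKS1, of which 93 were at A or C. Over all covered transcripts 31.3% of 26742 such stops at A or C were at least 2-fold higher in unstressed cells and 7.79% in starved cells. On IPO7 45 of the 89 were higher in unstressed cells and 0 in starved cells. The counts were 18 and 2 of 54 on RAD23B, 4 and 1 of 8 on TMED9, 46 and 3 of 94 on NUCKS1, and 20 and 0 of 30 on SRP72.

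The share of all listed stops that fell on an mRNA, a rough measure of how much of it was in the library, did not follow the rG4 stops. Counted over all bases, IPO7 went from 452 to 756 ppm of all listed stops, 1.67-fold (1.63–1.72), and SRP72, which ranked near the bottom, from 419 to 793, 1.89-fold (1.84–1.95). TMED9 fell from 371 to 128 ppm, 0.344-fold (0.329–0.360), and RAD23B from 311 to 231, 0.741-fold (0.711–0.772). NUCKS1 went from 615 to 655, 1.07-fold (1.04–1.10). Counted over stops at U and G only, RAD23B turned to a higher share in starved cells, 0.29 on the log2 scale against -0.43 over all stops, and the other 4 kept their direction. IPO7 and SRP72 were then past 2-fold, at 1.31 and 1.36 on the log2 scale. Over 1370 transcripts covered in both cell libraries the median fold was 0.963, with quartiles of 0.507 and 1.63. In all 14.1% were at least 2-fold higher and 24.6% at least 2-fold lower, and over all bases TMED9 was the one of the 5 mRNAs past either limit. The share is relative to all mRNAs of the library, and a change in the amount of an mRNA and a change in how DMS cut short its cDNA cannot be told apart in it. Between the in vitro libraries the shares of these 5 mRNAs differed by 1.01-fold to 1.07-fold.

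Relatives of the 5 genes gave a wider view of the same pathways. Of 3644 transcripts covered without DMS, 37.9% had an rG4 region. Of 16 genes of the importin beta family, which carry cargo through nuclear pores, 13 were covered and 7 had an rG4 region. KPNB1, the importin that carries classical import signals with importin alpha, had a stop at position 3869 in its 3′ UTR with 6 stops in unstressed and 100 in starved cells, whereas its stop at 3353 had 12 and 26 and its stop at 165 was not listed in either. TNPO1, the receptor of many RNA-binding proteins, had 5 and 44 stops at position 3006. TNPO1 had under 1 stop per nucleotide in unstressed cells, so its E was not compared. Of the 4 members of this family covered in both cell libraries, the transcript share ran from 0.837-fold in KPNB1 to 2.11-fold in CSE1L, the export receptor of importin alpha.

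Among 9 genes of the p24 family, 8 were matched and covered and 3 had rG4 regions: TMED1, TMED9 and TMED10. TMED9 was the only one of these 3 with at least 1 stop per nucleotide in both cell libraries. TMED3 fell in share as TMED9 did, 0.330-fold, and TMED2 had 0.909-fold. Among the ubiquitin shuttle factors and partners of RAD23B, UBQLN1, another shuttle factor, had a 3′ UTR stop at 3469 with none listed in unstressed and 11 stops in starved cells. Among 8 genes of the signal recognition particle and its receptor, all covered without DMS, only SRP72 and SRPRB had an rG4 region, and 3 were covered in both cell libraries. SRP9 and SRP14, which bind the Alu domain of the particle's RNA, had 2.08-fold and 1.65-fold the share in starved cells, beside 1.89-fold in SRP72. Of those below 1 stop per nucleotide in a cell library, SRP68 went from 111 to 18.0 ppm and SRPRA from 107 to 9.99 ppm, SRPRB from 75 to 71.3 ppm, SRP19 from 88.9 to 191 ppm and SRP54 from 48.3 to 84.1 ppm. RAD51AP1, the paralogue of NUCKS1, had no rG4 region.

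Over the 6 libraries, the regions with the most similar pattern of E were found among 525 regions by the distance of log2(E + 0.5), with no statement on shared function. IPO7 3955 was nearest to APH1A 1823 (distance 0.97), a 3′ UTR stop with none listed in unstressed and 19 stops in starved cells. TMED9 1205 was nearest to FKBP4 1753 (0.64) and RAD23B 2205 to HNRNPK 1850 (0.91), both in the 3′ UTR. NUCKS1 1659 was nearest to ERH 418 (1.51), which went from 18 to 396 stops. SRP72 65 was nearest to RRM1 141 (1.79), a stop in the 5′ UTR, also near the start of its mRNA, with none listed in unstressed and 6 stops in starved cells. The larger distances of NUCKS1 and SRP72 mean that no region shared their pattern as closely as for the other 3.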

How the data were processed

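G4-DMS-seq data of 6 libraries were analysed, 1 per condition. Per the labels and the study's methods, the authors removed duplicate reads, mapped the rest to an hg19 transcriptome with Bowtie, and deposited the RT stop count of every nucleotide that had 3 stops or more, beside the ratio of this count to a mean of the transcript. In the files this mean is over nucleotides of the same base. E was instead taken relative to all nucleotides, with the mean rebuilt from the base means and base composition. Gene symbols and listed bases linked transcripts to GENCODE release 44 on GRCh37 (minimum identity 97%, minimum coverage 80%, minimum 15 listed bases), which succeeded for 10463 of 11031 (94.9%). Regions were stops at G whose E reached 10 in the library labelled Na+ and exceeded that in the library labelled K+ by 2-fold or more, on transcripts averaging 1 stop per nucleotide or more, merged within 30 nt and represented by the strongest. Scored regions were listed in both in vitro libraries had a 2-fold or larger excess of E in K+ and lay on transcripts averaging 1 stop per nucleotide or more in all 4 DMS libraries. Ranked regions had 20 stops or more in each. Listed stops per library were 33507714 (labelled Na+), 35371061 (labelled K+), 21480565 (in vitro K+), 31174408 (in vitro Li+), 12999691 (unstressed) and 24014417 (starved).

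Intervals are 95% exact Poisson intervals for E, exact conditional binomial intervals for ratios and order-statistic intervals for medians. A fold against a stop not listed was taken against 3 stops per library. No test was made, since there was no replicate. The members and gene lists were chosen with earlier results of these data known. Named were the 5 members, regions ranked beside them or at the ends, the nearest pattern of each member, and family genes with an rG4 region or the most extreme change of share. One family member is not reported here. Which family stops were described was decided after their values were seen. The calculation was checked on simulated data. Software was matplotlib 3.10.9, scipy 1.17.1, pandas 2.3.3 and numpy 2.4.6 under Python 3.11.15.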

Additional observations from a re-analysis of the deposited data

How the results depend on the processing

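Of 145 values recomputed under alternative settings, 96 stayed within the counting interval of the reported value or, for counts, within 1.5 times of it, 42 moved further and 7 changed sign; the cause was not tested except where the setting itself shows it. The sign of every chosen stop held in all settings, for cells, in vitro and without DMS, but with nucleotides not listed counted as 2 the SRP72 stop was left with a log2 change of 0.046 and a rise of the score of 0.058. Summing stops over 2 nt on each side gave log2 differences between the libraries labelled Na+ and K+ of 4.41 (IPO7), 5.12 (RAD23B), 5.34 (NUCKS1) and 4.09 (SRP72), and rises of the score of 7.10 for IPO7 and 0.41 for NUCKS1. Summed so, the in vitro log2 difference between K+ and Li+ was 0.48 (IPO7), 0.95 (TMED9) and 0.63 (SRP72), short of the 2-fold that a score requires. It was 1.41 for RAD23B and 1.79 for NUCKS1. With E relative to nucleotides of the same base, the difference between these libraries was 3.27 for TMED9 and 5.36 for RAD23B. Scaling E to 800 stops at G that were alike without DMS, whose median E was 3.75 in unstressed and 7.07 in starved cells, left TMED9 a log2 change of 0.66 and rises of 2.42 (IPO7), 0.60 (TMED9), 0.85 (RAD23B), 0.092 (NUCKS1) and 0.17 (SRP72).

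The stops upstream were recomputed with nucleotides not listed counted as 2, an alternative chosen after seeing the data. It changed the sign of the log2 change upstream of IPO7 to 0.081 in vitro and -0.23 in cells, and of NUCKS1 to -0.69 in cells. SRP72 in cells is not among these values, since it had no listed stop upstream in unstressed cells.

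The median of the other stops at G moved in most settings. On the log2 scale it was 0.65 (IPO7), -0.17 (TMED9), 1.06 (NUCKS1) and 0.52 (SRP72) relative to the same base, and 0.72 (IPO7), -0.13 (TMED9) and 0.60 (SRP72) relative to U and G. With nucleotides not listed counted as 2 it was 0.039 (IPO7), 0.33 (NUCKS1) and -0.32 (SRP72), and with a minimum of 10 stops 0.32 (IPO7), 0.31 (RAD23B), 0.15 (NUCKS1) and 0.16 (SRP72). The share of all stops at G that were at least 2-fold higher in starved cells was 37.1% with that minimum and 28.5% relative to U and G.

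The log2 change of the transcript share with counts under 3 estimated was 0.53 (IPO7), -1.38 (TMED9), 0.0035 (NUCKS1) and 0.69 (SRP72). From stops at U and G only it was 1.31 (IPO7), -1.61 (TMED9), 0.29 (RAD23B), 0.28 (NUCKS1) and 1.36 (SRP72). Regions numbered 10775 with E of at least 5, 1381 with at least 20, 15835 with a transcript minimum of 0.25, and 236 with the cation assigned by the labels. Scored regions that rose by at least 0.25 numbered 188 with the lower minimum and 3 by the labels.

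No paired analysis was possible because each condition had 1 library. The 0 to 53 stops behind the chosen stops in cells limit the precision of every fold, and leaving out a replicate could not be done.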
